A study of Mus musculus with 20 samples.

Results

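Oct4-GFP SNEL#1 and Nanog-GFP SNEL#2 are the 2 mouse induced pluripotent stem cell (iPSC) lines that the labels of this study grade as high quality. They were compared with 3 embryonic stem cell (ESC) lines labelled as controls. The members were chosen by these labels alone and make up 4 of 20 arrays and 2 of 10 lines. Both high-quality lines carry a fluorescent reporter in their name, Oct4-GFP for one and Nanog-GFP for the other, and both were made with SNEL, the factor set Sall4, Nanog, Esrrb and Lin28. The controls, on 6 arrays, were ESCs of the KH2 line and of 2 reporter lines, one Nanog-GFP and one Oct4-GFP, with no factor set named. The other lines of the study were 2 labelled good (BC_2 OSKM and Nanog-GFP SNEL#3) and 3 labelled poor (KH2_OSKM, Nanog-GFP OSKM#2 and Oct4-GFP OSKM#2), where OSKM stands for Oct4, Sox2, Klf4 and Myc. All cells grew untreated in 2i medium without feeder cells, and total RNA from each was labelled with Cy3. No strain, sex, passage or cell of origin is given in the labels. How quality was graded is not stated, and each iPSC name stands for a single line.

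Mouse pluripotent stem cells hold a network of transcription factors, with Oct4 (Pou5f1), Sox2, Nanog and Esrrb at its core, that keeps lineage genes low. 2i medium blocks the kinases MEK and GSK3 and holds the cells in the naive state of the early epiblast. Reprogramming resets somatic cells to this state by forced expression of such factors, and iPSC lines are judged against ESCs because single lines can keep or acquire differences in imprinted loci, in chromosomes or in rare cell states. One such state, called 2-cell-like, is marked by Zscan4 and other genes of the mouse embryo's first divisions.

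Each line was hybridized to 2 arrays of 1 Agilent design, and nothing in the labels says that they came from separate cultures, so the 2 arrays were averaged and n counts lines. P-values therefore measure the spread between these lines only. Levels are log2 signals relative to the array's own 75th percentile, so 0 stands for a probe at that percentile and 1 unit is a doubling. Between 50.6% and 68.7% of probes were well above background on the 4 high-quality arrays, against 60.6% to 68.7% on the ESC arrays, and precision is limited by how few arrays there are. The lowest share, 50.6%, belonged to array 1 of Oct4-GFP SNEL#1. The 2 arrays of a line differed by more than 3 log2 units for 65 genes in Oct4-GFP SNEL#1 and 72 in Nanog-GFP SNEL#2, against 76 to 106 genes in the ESC lines. Arrays lay on 3 slides, each of which held high-quality and ESC arrays. Of these groups, slide 1 held both high-quality lines and KH2 ESCs. Slide 2 held Nanog-GFP SNEL#2 with Nanog-GFP and Oct4-GFP ESCs, and slide 3 held Oct4-GFP SNEL#1 with all 3 ESC lines. Differences within a slide therefore compare different lines from slide to slide, and slide cannot be told apart from line. Values of a line are given below as array 1 and then array 2.

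No gene was called between the high-quality and the ESC lines. Over 27161 genes, limma called 0 at an adjusted p of at most 0.05 (0.0%), with a lowest adjusted p of 0.843, and 1566 (5.77%) had an unadjusted p under 0.05. In the same comparison simulated with known changes, limma recovered 7.3% of 2-fold, 60% of 4-fold and 80.7% of 8-fold changes. The simulation moved both high-quality lines by the same amount and drew noise independently for each line. These shares need not hold for genes at which the 2 high-quality lines differ. The genes below are therefore described by their values. All 4 high-quality arrays lay above all 6 ESC arrays for 376 genes (1.38%) and below them for 718 (2.64%). The median log2 difference over all genes was -0.07. For genes of this kind the difference within each of the 3 slides has the same sign by construction. Without Nanog-GFP ESCs the counts were 1879 above and 3001 below, and without Oct4-GFP SNEL#1 they were 3836 and 3538.

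The largest differences above the ESC lines belonged to genes of the Y chromosome. Eif2s3y, the Y copy of a subunit of the translation initiation factor eIF2, read 3.47 and 3.53 in Oct4-GFP SNEL#1 and 2.93 and 2.98 in Nanog-GFP SNEL#2, against 1.40 and 1.39 in KH2, -8.28 and -7.93 in Nanog-GFP and 1.39 and 1.47 in Oct4-GFP ESCs. Ddx3y, an RNA helicase gene of the same chromosome, read 1.07 and 0.94 in Oct4-GFP SNEL#1 and 0.77 and 0.72 in Nanog-GFP SNEL#2, against -1.06 and -1.32 in KH2, -8.13 and -8.45 in Nanog-GFP and -0.73 and -0.68 in Oct4-GFP ESCs. Nanog-GFP ESCs lay near the floor of the array for both genes, and neither gene was well above background there. KH2 and Oct4-GFP ESCs lay below the high-quality lines as well, so that without Nanog-GFP ESCs the log2 differences were 1.81 for Eif2s3y and 1.82 for Ddx3y, against 4.98 ± 2.85 and 4.27 ± 2.23 (SE) with all 3 ESC lines. In the other iPSC lines Eif2s3y read 2.40 in Nanog-GFP OSKM#2, 3.01 in Oct4-GFP OSKM#2 and 0.65 in Nanog-GFP SNEL#3. It read -1.20 in KH2_OSKM and -3.12 in BC_2 OSKM. Uty, a Y-linked relative of the histone demethylase Kdm6a, averaged -4.05 ± 0.25 in the high-quality lines (SD, n = 2) and -6.33 ± 1.58 in the ESC lines (SD, n = 3). Tsix, the antisense partner of Xist on the X chromosome, read -4.81 in Oct4-GFP SNEL#1 and -2.27 in Nanog-GFP SNEL#2, against -3.87 in KH2, -4.11 in Nanog-GFP and -3.19 in Oct4-GFP ESCs, and its groups overlapped.

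Xpnpep2, a membrane-bound aminopeptidase, read -3.39 and -3.79 in Oct4-GFP SNEL#1 and -2.30 and -2.29 in Nanog-GFP SNEL#2, against -4.65 and -8.27 in KH2, -5.72 and -6.76 in Nanog-GFP and -5.99 and -6.06 in Oct4-GFP ESCs. Its arrays did not overlap, but 1 ESC array came within 1 log2 unit of the lowest high-quality array. The good line Nanog-GFP SNEL#3 read -2.13 for Xpnpep2, and the rest of the other iPSC lines -6.41 to -4.55. Hoxb9, a homeobox gene of posterior body patterning, read -0.87 and -0.83 in Oct4-GFP SNEL#1 and -0.13 and -0.02 in Nanog-GFP SNEL#2, against -3.69 and -3.62 in KH2, -1.96 and -1.99 in Nanog-GFP and -2.51 and -2.97 in Oct4-GFP ESCs. It lay higher in both high-quality lines than in any ESC line, by 2.33 ± 0.50 log2 units (SE), with an adjusted p of 0.843 by limma. Hoxb9 ranged from -3.35 to -1.51 in the poor and good lines. Isg20, an interferon-stimulated exonuclease, averaged 0.02 in Oct4-GFP SNEL#1 and 1.81 in Nanog-GFP SNEL#2, against -2.45 to -0.60 over the ESC arrays. It averaged 0.07 in BC_2 OSKM and 0.57 in KH2_OSKM, and -1.89 to -1.04 in the rest of the poor and good lines. Calr4, of the calreticulin family of endoplasmic reticulum chaperones, ranged from 1.38 to 1.99 over the high-quality arrays and from -1.87 to 0.72 over the ESC arrays. Lct, which encodes lactase, ranged from -2.36 to -1.90 in the high-quality lines, against -4.86 to -3.25 in ESCs. Gpd1, the cytosolic glycerol-3-phosphate dehydrogenase, ranged from -0.06 to 0.52 in the high-quality lines, against -1.81 to -0.91 in ESCs.

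In other genes of this group the 2 high-quality lines were far apart. Cldn15, a tight-junction claudin, averaged -4.0 in Oct4-GFP SNEL#1 and -1.23 in Nanog-GFP SNEL#2, against -4.72 in KH2, -5.14 in Nanog-GFP and -4.36 in Oct4-GFP ESCs. Ghrl, the gene of the hormone ghrelin, averaged -3.75 in Oct4-GFP SNEL#1 and -1.38 in Nanog-GFP SNEL#2, against -4.71 in KH2, -4.32 in Nanog-GFP and -4.23 in Oct4-GFP ESCs. For both, Nanog-GFP SNEL#2 carried most of the difference while Oct4-GFP SNEL#1 lay less than 1 log2 unit above the ESC mean. Gm104 also leaned on Nanog-GFP SNEL#2, with -3.46 in Oct4-GFP SNEL#1 and -0.77 in Nanog-GFP SNEL#2, against -5.85 to -4.17 over the ESC arrays. Ankk1, a kinase with ankyrin repeats, Dusp13, a dual-specificity phosphatase, and Brd8dc completed the 15 largest differences, at 1.89, 1.86 and 3.21 log2 units. Dusp13 has a second probe, which differed by 0.67 between the groups.

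Below the ESC lines, the largest differences came from genes with a strong signal in all 3 ESC lines and almost none in both high-quality lines. Ubd encodes FAT10, a ubiquitin-like modifier induced by inflammatory cytokines. It read -6.57 and -8.55 in Oct4-GFP SNEL#1 and -7.16 and -7.58 in Nanog-GFP SNEL#2, against 1.60 and 1.44 in KH2, 0.73 and 0.57 in Nanog-GFP and 1.49 and 1.43 in Oct4-GFP ESCs. No high-quality array was well above background, so Ubd was at least 95.7-fold lower in the high-quality lines, a bound that sets the ESC mean against the lowest detectable signal of each high-quality array (adjusted p = 0.843 by limma). Gm10499, which the array annotates as similar to a major histocompatibility complex class I antigen precursor, read -4.69 and -4.29 in Oct4-GFP SNEL#1 and -7.04 and -7.43 in Nanog-GFP SNEL#2, against 3.61 and 3.55 in KH2, 3.96 and 3.90 in Nanog-GFP and 3.78 and 3.76 in Oct4-GFP ESCs. It was well above background on 1 of 4 high-quality arrays and lay -9.62 log2 units from the ESC mean (SE 3.84, adjusted p = 0.858 by limma). Trim12a, a tripartite-motif gene, read -6.45 and -5.50 in Oct4-GFP SNEL#1 and -5.23 and -5.25 in Nanog-GFP SNEL#2, against 0.79 and 0.81 in KH2, 0.71 and 0.53 in Nanog-GFP and 0.65 and 0.46 in Oct4-GFP ESCs. It too was well above background on 1 of 4 high-quality arrays, at a log2 difference of -6.26 (SE 2.55).

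The values of Ubd and Gm10499 rest on a single oligonucleotide each. Trim12a has a second probe, which read -7.37 in Oct4-GFP SNEL#1 and -7.17 in Nanog-GFP SNEL#2, against -2.50 in KH2, -2.84 in Nanog-GFP and -2.78 in Oct4-GFP ESCs, a log2 difference of -4.57. The 60-base sequences of the probes used are shown here because these genes carry the widest gap between the groups, with the mm9 positions that the array files give.
Ubd: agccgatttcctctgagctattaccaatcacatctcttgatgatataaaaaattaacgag
Gm10499: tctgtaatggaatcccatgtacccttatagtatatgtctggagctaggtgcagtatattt
Trim12a: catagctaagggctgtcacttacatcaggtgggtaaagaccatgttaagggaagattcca
The Ubd probe lies at chr17:37332688-37332747, plus strand, the Gm10499 probe at chr17:36278728-36278787, minus strand and the Trim12a probe at chr7:111448499-111448558, minus strand. Their content of G and C is 35%, 38.3% and 45%. Class I genes of this region are close copies of each other, so hybridization of related transcripts to the Gm10499 probe cannot be told apart from its own signal.

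High and near-background signal at these 3 genes were found among the other iPSC lines too. Ubd lay at -8.31 in Oct4-GFP OSKM#2, -6.57 in Nanog-GFP SNEL#3 and -7.92 in BC_2 OSKM. It lay at 2.49 in Nanog-GFP OSKM#2 and 1.87 in KH2_OSKM, close to the ESC lines. For Gm10499 and Trim12a the low lines were Oct4-GFP OSKM#2 (-8.18 and -6.85) and Nanog-GFP SNEL#3 (-6.44 and -6.38). Low signal at these genes was thus found in lines of all 3 grades. The wide spread among the poor lines and among the good lines enters the standard error of the main test. When only the high-quality and ESC lines were fitted, limma called Ubd (adjusted p = 0.0271) and Trim12a (adjusted p = 0.0296) and no other gene.

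Some genes near these were low as well. Trim34a, whose probe lies close to that of Trim12a on chromosome 7, averaged -3.50 ± 0.71 in the high-quality lines (SD, n = 2) and -0.54 ± 0.36 in the ESC lines (SD, n = 3). A second Trim34a probe, dimmer in ESCs, differed by -0.21 between the groups. On chromosome 17, Mucl3, 2410017I17Rik, H2-T3, Gm10499 and Ubd, which make up 5 of the 15 largest differences below ESCs, have their probes between positions 35772766 and 37332747 of mm9, within the major histocompatibility complex. H2-T3, a non-classical class I gene, read -6.76 and -7.41 in Oct4-GFP SNEL#1 and -7.38 and -6.86 in Nanog-GFP SNEL#2, against -2.95 and -3.30 in KH2, -4.28 and -4.26 in Nanog-GFP and -3.65 and -3.52 in Oct4-GFP ESCs. It was at least 3.27-fold lower in the high-quality lines (adjusted p = 0.845 by limma), and 2410017I17Rik at least 3.81-fold (adjusted p = 0.843), since neither was well above background on any high-quality array. Oct4-GFP OSKM#2 and Nanog-GFP SNEL#3 were low too, at -7.23 and -6.74 for H2-T3 and -8.28 and -6.56 for 2410017I17Rik. Mucl3 lay at -7.24 and -6.70 there, and Trim34a at -4.68 and -3.715. The rest of the poor and good lines ranged from -4.07 to -3.02 for H2-T3 and from -4.87 to -4.08 for 2410017I17Rik. They ranged from -4.21 to -2.59 for Mucl3 and from -0.41 to -0.08 for Trim34a. Of 70 genes tested in this interval, chosen after these values were seen, all 4 high-quality arrays lay below all 6 ESC arrays for 11 and above them for 0. The 5 genes just named, which set the interval, are among the 11. Without them the counts were 6 of 65 and 0, beside 2.64% and 1.38% of all genes, and the median log2 difference was -0.17. Among the 17 measured members of the list of major histocompatibility complex genes, 9 were higher and 8 lower than in ESCs (40.8% and 59.2% of all genes), with a median of 0.02. The lines lay on opposite sides: 11 of 17 were higher in Oct4-GFP SNEL#1 (36.0% of all genes, median 0.75) and 1 of 17 in Nanog-GFP SNEL#2 (49.0%, median -0.69).

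Olig1 and Olig2, neighbouring genes of chromosome 16 that encode helix-loop-helix factors of the oligodendrocyte lineage, were further members of this group. Olig1 read -0.34 and -0.40 in Oct4-GFP SNEL#1 and -6.49 and -5.84 in Nanog-GFP SNEL#2, against 1.64 and 1.58 in KH2, 1.64 and 1.46 in Nanog-GFP and 0.94 and 1.03 in Oct4-GFP ESCs. The line mean of Oct4-GFP SNEL#1 stayed within 2 log2 units of each ESC line mean, while Nanog-GFP SNEL#2 lay far lower. The good line Nanog-GFP SNEL#3 was low as well, at -5.60 for Olig1 and -6.43 for Olig2. The rest of the poor and good lines ranged from -0.27 to 0.80 for Olig1 and from -1.32 to -0.20 for Olig2. Olig2 read -2.36 and -2.23 in Oct4-GFP SNEL#1 and -2.42 and -6.07 in Nanog-GFP SNEL#2, against 0.77 and 0.74 in KH2, -0.12 and 0.13 in Nanog-GFP and -0.05 and 0.21 in Oct4-GFP ESCs, and the 2 arrays of Nanog-GFP SNEL#2 differed from each other by more than 3 log2 units. Both lines were close together at Tiam2, an exchange factor for the GTPase Rac, which read -1.29 and -1.04 in Oct4-GFP SNEL#1 and -1.49 and -1.58 in Nanog-GFP SNEL#2, against 1.13 and 1.09 in KH2, 1.72 and 1.61 in Nanog-GFP and 1.15 and 1.1 in Oct4-GFP ESCs. Its log2 difference was -2.65 ± 0.60 (SE, adjusted p = 0.843 by limma). Tmc7, of the transmembrane channel-like family, averaged -2.72 ± 1.28 in the high-quality lines (SD, n = 2) and 0.72 ± 0.68 in the ESC lines (SD, n = 3). Its second probe, dimmer in ESCs, differed by -0.07 between the groups. By the brighter probe Tmc7 lay at -4.03 in Nanog-GFP SNEL#3, -2.40 in Oct4-GFP OSKM#2 and -0.45 to 2.14 in the rest of the poor and good lines. Tchh, which encodes trichohyalin of the hair follicle, averaged -5.53 ± 0.17 in the high-quality lines (SD, n = 2) and -2.98 ± 0.62 in the ESC lines (SD, n = 3). The remaining members, Gdpd3, 2810429I04Rik and 4930481B07Rik, were, like Tchh, well above background on 1 of 4 high-quality arrays and on none of Nanog-GFP SNEL#2. For Nanog-GFP SNEL#2 only bounds can be given: it was at least 5.57-, 3.54- and 4.04-fold below the ESC mean for these 3 genes, and at least 4.46-fold for Tchh, with adjusted p of 0.819, 0.722, 0.802 and 0.578 by limma. A second probe of 2810429I04Rik differed by -0.74 between the groups.

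**Figure D1:**
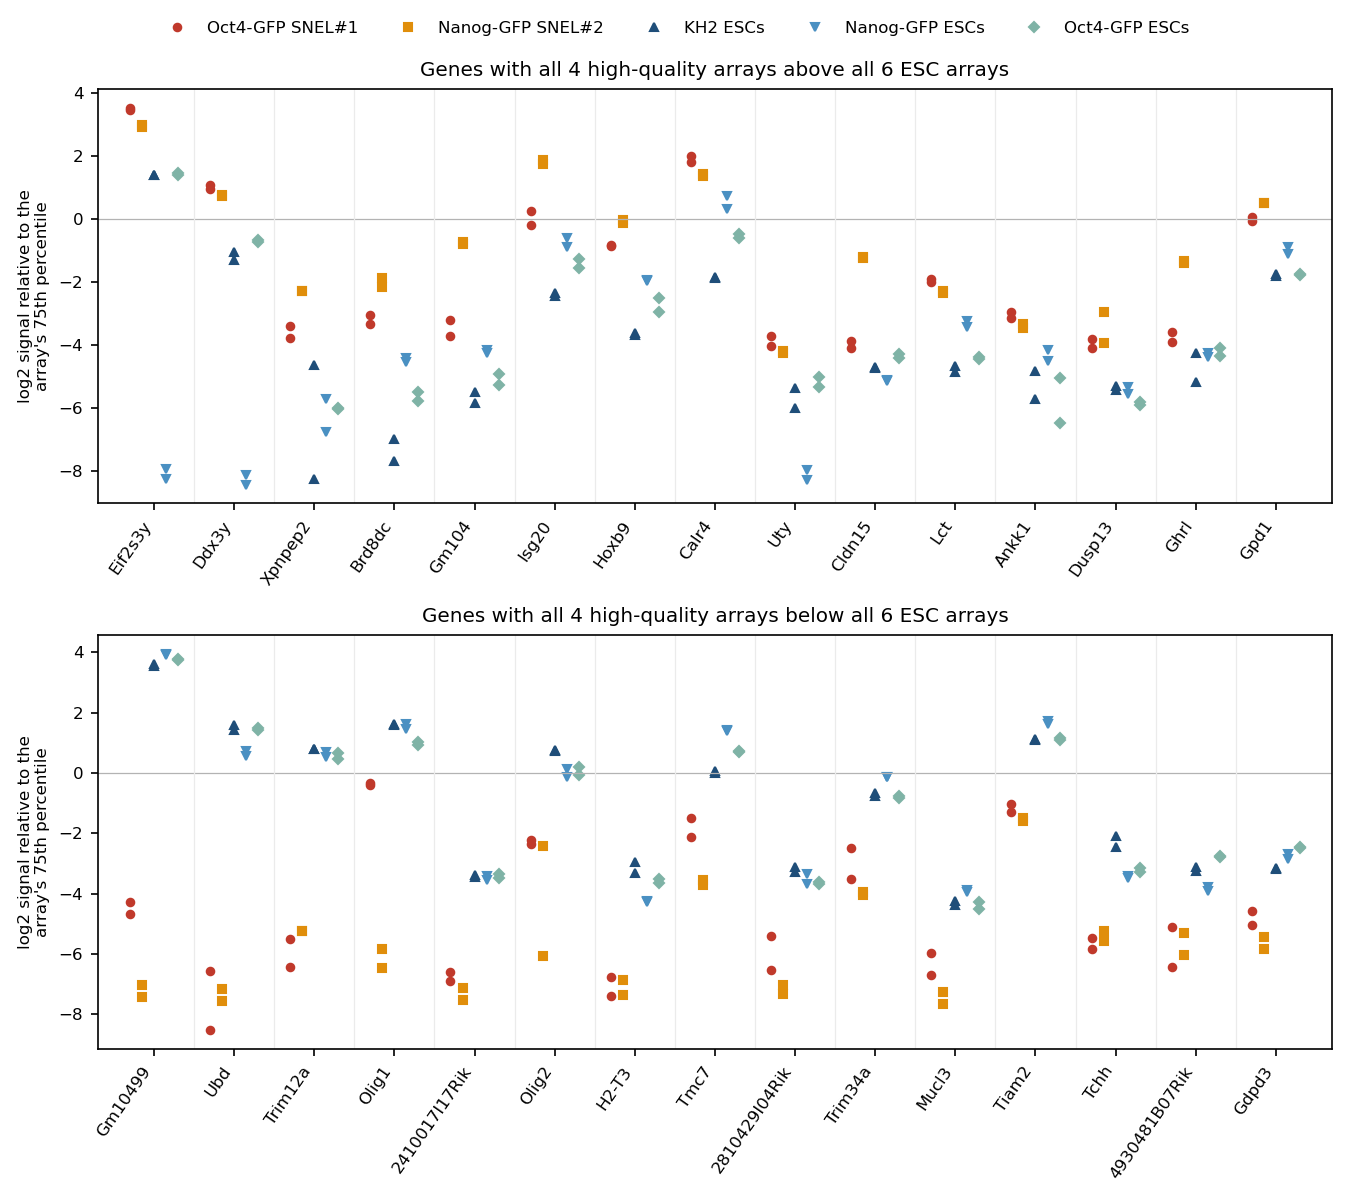
Log2 signal relative to the array's 75th percentile (vertical axes) for the 15 genes with the largest differences above (top) and below (bottom) the ESC lines among genes whose arrays do not overlap. Each point is 1 array, 2 per line. Gm10499, Ubd and Trim12a lie between -8.55 and -4.29 on the high-quality arrays and at 0.46 or more on every ESC array.

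Genes of the factors used for reprogramming were split by line. Of the 8, 2 were higher and 6 lower than the ESC mean in Oct4-GFP SNEL#1 (36.0% and 64.0% of all genes), with a median of -0.17. In Nanog-GFP SNEL#2 7 were higher and 1 lower (49.0% and 51.0%), with a median of 0.37. Between the 2 lines 7 of 8 were lower in Oct4-GFP SNEL#1 (59.0% of all genes), with a median of -0.69. For both lines together 4 were higher and 4 lower (40.8% and 59.2%), with a median of 0.02, and 0 had an unadjusted p under 0.05 (5.77%). Nanog averaged 6.93 ± 0.43 in the high-quality lines (SD, n = 2) and 6.97 ± 0.03 in the ESC lines (SD, n = 3). Esrrb averaged 7.47 ± 0.38 in the high-quality lines (SD, n = 2) and 7.39 ± 0.04 in the ESC lines (SD, n = 3), Sall4 4.33 ± 0.33 in the high-quality lines (SD, n = 2) and 4.25 ± 0.28 in the ESC lines (SD, n = 3) and Sox2 4.02 ± 0.18 in the high-quality lines (SD, n = 2) and 3.79 ± 0.37 in the ESC lines (SD, n = 3). Lin28a, which encodes an RNA-binding protein that blocks let-7 maturation, read 2.11 in Oct4-GFP SNEL#1 and 5.0 in Nanog-GFP SNEL#2, against 5.40 in KH2, 3.65 in Nanog-GFP and 4.57 in Oct4-GFP ESCs. Pou5f1 read 5.40 and 4.88 in Oct4-GFP SNEL#1 and 6.32 and 6.29 in Nanog-GFP SNEL#2, against 6.42 and 6.28 in KH2, 6.32 and 6.24 in Nanog-GFP and 5.43 and 4.88 in Oct4-GFP ESCs, so that Oct4-GFP SNEL#1 overlapped Oct4-GFP ESCs, the line of the same reporter. Klf4 read 4.64 in Oct4-GFP SNEL#1 and 5.49 in Nanog-GFP SNEL#2, against 4.97 in KH2, 4.93 in Nanog-GFP and 4.36 in Oct4-GFP ESCs. Myc, a driver of growth and proliferation, was widely spread in both groups, at -3.91 in Oct4-GFP SNEL#1 and -1.31 in Nanog-GFP SNEL#2, against -0.47 in KH2, -4.46 in Nanog-GFP and -1.40 in Oct4-GFP ESCs. Whether these probes also read transcripts of the reprogramming vector was not tested.

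Naive and core pluripotency genes showed the same split by line. All 38 listed genes were measured and well above background on every array of both groups. In Oct4-GFP SNEL#1 12 were higher and 26 lower than the ESC mean (36.0% and 64.0% of all genes), with a median of -0.24. In Nanog-GFP SNEL#2 30 were higher and 8 lower (49.0% and 51.0% of all genes), with a median of 0.22. Zfp42 (Rex1), a zinc-finger marker of naive cells, read 3.94 and 3.83 in Oct4-GFP SNEL#1 and 6.01 and 6.05 in Nanog-GFP SNEL#2, against 6.04 and 6.08 in KH2, 5.74 and 5.82 in Nanog-GFP and 5.89 and 5.93 in Oct4-GFP ESCs. Only Oct4-GFP SNEL#1 stood apart. Lefty1 and Lefty2, secreted inhibitors of Nodal signalling, followed the same order: Lefty1 read 1.73 in Oct4-GFP SNEL#1 and 4.53 in Nanog-GFP SNEL#2, against 3.45 in KH2, 3.15 in Nanog-GFP and 3.22 in Oct4-GFP ESCs. Fbxo15, a classic ESC marker that encodes an F-box protein, was the 1 member with an unadjusted p under 0.05, and averaged 6.10 ± 0.06 in the high-quality lines (SD, n = 2) and 5.58 ± 0.30 in the ESC lines (SD, n = 3). Between the 2 lines the list's median difference, Oct4-GFP SNEL#1 minus Nanog-GFP SNEL#2, was -0.42 (29 of 38 lower, with 59.0% of all genes lower), against -0.12 over all genes. It was -0.36 on slide 1, which both lines share, and -0.17 in the authors' value table.

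Genes of the primed epiblast, the state after the naive one, gave a median of -0.20, with 6 of 16 higher and 10 lower. Pou3f1 (Oct6), a factor of that state, averaged -1.23 ± 0.44 in the high-quality lines (SD, n = 2) and -0.33 ± 0.30 in the ESC lines (SD, n = 3), and its arrays did not overlap. At the imprinted Dlk1-Dio3 locus, 3 of 6 measured genes were above the ESC mean in Oct4-GFP SNEL#1 (36.0% of all genes, median 0.20). In Nanog-GFP SNEL#2 4 of 6 were above it (49.0%, median 0.49), and Begain was above it in both lines. Meg3 and Mirg, maternal transcripts of the locus, are often followed in iPSC lines. For these 2 RNAs the lines lay on opposite sides of the ESC lines. Meg3 read 4.04 and 4.06 in Oct4-GFP SNEL#1 and 5.94 and 5.93 in Nanog-GFP SNEL#2, against 4.89 and 4.92 in KH2, 5.09 and 5.09 in Nanog-GFP and 4.50 and 4.29 in Oct4-GFP ESCs. Mirg read 1.05 in Oct4-GFP SNEL#1 and 4.0 in Nanog-GFP SNEL#2, against 3.25 in KH2, 2.33 in Nanog-GFP and 2.17 in Oct4-GFP ESCs. Nanog-GFP SNEL#2 was above, and Oct4-GFP SNEL#1 below, all 3 ESC lines for both RNAs, and the adjusted p of the difference between the 2 lines was 0.809 for Meg3 and 0.788 for Mirg by limma. Dlk1, the paternally expressed gene of the locus, of the Notch ligand family, read -1.04 in Oct4-GFP SNEL#1 and -2.45 in Nanog-GFP SNEL#2, against -1.54 in KH2, -1.76 in Nanog-GFP and -2.21 in Oct4-GFP ESCs. Of the other imprinted genes, 21 of 39 were higher and 18 lower, with a median of 0.10. Igf2, a fetal growth factor, averaged -5.58 ± 0.03 in the high-quality lines (SD, n = 2) and -4.36 ± 0.58 in the ESC lines (SD, n = 3), and was well above background on 1 of 4 high-quality arrays.

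Targets of p53, the DNA damage and stress response factor, were above the ESC mean for 28 of 34 measured genes, against 40.8% of all genes, with a median log2 difference of 0.27. The median was 0.25 in Oct4-GFP SNEL#1 and 0.39 in Nanog-GFP SNEL#2. Within slides 1, 2 and 3 it was 0.28, 0.33 and 0.20, and it ranged from 0.19 to 0.46 when each line was left out in turn. Of the 34, 4 had an unadjusted p under 0.05 (5.77% of all genes) and 3 had arrays that did not overlap (1.38%). Phlda3, which encodes a repressor of Akt signalling, read 4.71 and 4.57 in Oct4-GFP SNEL#1 and 4.73 and 4.71 in Nanog-GFP SNEL#2, against 3.85 and 3.72 in KH2, 4.27 and 4.01 in Nanog-GFP and 3.79 and 3.73 in Oct4-GFP ESCs. It averaged 4.68 ± 0.06 in the high-quality lines (SD, n = 2) and 3.89 ± 0.21 in the ESC lines (SD, n = 3), a log2 difference of 0.79 ± 0.17 (SE) with an adjusted p of 0.843 by limma. Dcxr, a xylulose reductase, averaged 1.42 ± 0.20 in the high-quality lines (SD, n = 2) and 0.47 ± 0.40 in the ESC lines (SD, n = 3), and Cd80, a costimulatory ligand, -0.77 ± 0.03 in the high-quality lines (SD, n = 2) and -1.47 ± 0.06 in the ESC lines (SD, n = 3). Neither overlapped the ESC arrays. Eda2r, a receptor of the TNF receptor family, averaged -2.58 ± 0.21 in the high-quality lines (SD, n = 2) and -3.55 ± 0.33 in the ESC lines (SD, n = 3), although its arrays overlapped. Mdm2, the ubiquitin ligase that restrains p53, read 5.42 in Oct4-GFP SNEL#1 and 5.42 in Nanog-GFP SNEL#2, against 4.84 in KH2, 5.43 in Nanog-GFP and 4.76 in Oct4-GFP ESCs, and Cdkn1a (p21), the cell cycle inhibitor most often used as a p53 readout, read 3.90 in Oct4-GFP SNEL#1 and 4.18 in Nanog-GFP SNEL#2, against 3.84 in KH2, 4.18 in Nanog-GFP and 4.13 in Oct4-GFP ESCs. In the poor and good lines Phlda3 ranged from 4.45 to 4.79.

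Histone genes of the replication-dependent clusters, core and linker histones together, were below the ESC mean for 39 of 45 measured genes, against 59.2% of all genes, with a median of -0.26. The median was -0.15 in Oct4-GFP SNEL#1 and -0.39 in Nanog-GFP SNEL#2 (-0.28 with 3 genes not above background at their bound), and within slides 1, 2 and 3 it was -0.30, -0.34 and -0.16. Arrays of 3 members did not overlap (2.64% of all genes lay below in this way). These were H1f4, H4c11 and H4c3, at -0.55, -0.39 and -0.39. H2ac4, an H2A gene, had the smallest p and averaged 6.06 ± 0.22 in the high-quality lines (SD, n = 2) and 6.62 ± 0.19 in the ESC lines (SD, n = 3). Many of these genes are near-identical copies, so their probes are not independent. H2ax, the variant whose phosphorylated form marks DNA breaks, averaged 6.87 ± 0.31 in the high-quality lines (SD, n = 2) and 6.85 ± 0.02 in the ESC lines (SD, n = 3). Of 25 cell cycle genes 21 were lower (59.2% of all genes), with a median of -0.12. In Oct4-GFP SNEL#1 18 were lower (64.0% of all genes, median -0.22) and in Nanog-GFP SNEL#2 13 (51.0%, median -0.01). For both lines together the median was -0.24, 0.02 and -0.21 within slides 1, 2 and 3. The member with the smallest p was Cdkn2b (p15), a CDK inhibitor, which read -2.25 and -1.58 in Oct4-GFP SNEL#1 and -2.78 and -2.74 in Nanog-GFP SNEL#2, against -0.96 and -0.77 in KH2, -0.96 and -0.80 in Nanog-GFP and -1.28 and -0.88 in Oct4-GFP ESCs, without overlap.

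The 2 high-quality lines lay 0.913 log2 units apart (root mean square over all genes), further than the mean distance of either line from the ESC lines, 0.782 for Oct4-GFP SNEL#1 and 0.736 for Nanog-GFP SNEL#2. Limma called 0 genes between Oct4-GFP SNEL#1 and Nanog-GFP SNEL#2 (0.0%), with a lowest adjusted p of 0.0636 and 1772 genes (6.52%) at an unadjusted p under 0.05. A lone line is assumed here to vary like the lines of the other groups. The 2 arrays of Oct4-GFP SNEL#1 lay above those of Nanog-GFP SNEL#2 for 6907 genes (25.4%) and below them for 11420 (42.0%). The median log2 difference over all genes was -0.12, and it was -0.04 after quantile normalization.

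Genes of the 2-cell-like state made the largest gap. In Oct4-GFP SNEL#1 20 of 23 measured members were above the ESC mean (36.0% of all genes), with a median of 4.23, and 14 had an unadjusted p under 0.05 (4.8% of all genes). In Nanog-GFP SNEL#2 11 of 23 were above it (49.0%), with a median of -0.15. Of the 23, 10 were well above background on every ESC array, 1 (Arg2) on none, and 9 on no array of Nanog-GFP SNEL#2. With genes not above background in a whole group set at their bound, or at 0 where there is none, the medians were 3.82 in Oct4-GFP SNEL#1 and 0.00 in Nanog-GFP SNEL#2. Zscan4a, of the zinc-finger family that marks the state, read 2.51 and 2.46 in Oct4-GFP SNEL#1 and -4.26 and -4.38 in Nanog-GFP SNEL#2, against -5.26 and -5.15 in KH2, -1.09 and -1.03 in Nanog-GFP and -4.34 and -4.80 in Oct4-GFP ESCs. Oct4-GFP SNEL#1 was highest, Nanog-GFP ESCs came next, and Nanog-GFP SNEL#2 lay among the other ESC lines. Zscan4f read 4.12 in Oct4-GFP SNEL#1 and -2.54 in Nanog-GFP SNEL#2, against -4.26 in KH2, 0.40 in Nanog-GFP and -3.32 in Oct4-GFP ESCs. Tcstv3, another gene of the state, read -1.63 in Oct4-GFP SNEL#1 and -6.67 in Nanog-GFP SNEL#2, against -7.39 in KH2, -5.05 in Nanog-GFP and -7.60 in Oct4-GFP ESCs, Usp17lb, a deubiquitinase gene, -1.70 in Oct4-GFP SNEL#1 and -6.65 in Nanog-GFP SNEL#2, against -7.72 in KH2, -5.09 in Nanog-GFP and -7.98 in Oct4-GFP ESCs, and Arg2, an arginase, -3.02 in Oct4-GFP SNEL#1 and -7.15 in Nanog-GFP SNEL#2, against -7.76 in KH2, -5.93 in Nanog-GFP and -8.04 in Oct4-GFP ESCs. The list's median difference, Oct4-GFP SNEL#1 minus Nanog-GFP SNEL#2, was 4.95 (3.58 with such genes at their bound), against -0.12 over all genes, and 4.34 on slide 1. In the authors' value table it was 2.68, and after normexp background correction 1.88. The median for both lines together against ESCs was 2.16, or 1.45 with Arg2 at its bound. As fitted it was 2.40, -0.51 and 4.81 within slides 1, 2 and 3, and slide 2 holds no array of Oct4-GFP SNEL#1. In bulk RNA a larger share of cells in this state and more RNA per such cell cannot be told apart. Members of this family share sequence, so their probes can read each other's transcripts.

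Of the 10 genes furthest above in Oct4-GFP SNEL#1, 4 (Gm8300, Pramel19, Pramel31 and Zscan4a) are members of the 2-cell-like list. Pramel19, Pramel16, Pramel31, Gm13043 and Gm13101, of which the first 3 belong to the Prame-like family, Zscan4a, Gm8300, Gm428, and Gm4016 and Gm4018, annotated on the array as similar to oocyte homeobox genes, made up the group. Gm428 read 1.08 and 1.1 in Oct4-GFP SNEL#1 and -7.19 and -7.49 in Nanog-GFP SNEL#2, against -7.61 and -6.83 in KH2, -2.20 and -2.39 in Nanog-GFP and -6.20 and -5.73 in Oct4-GFP ESCs. It was not well above background in Nanog-GFP SNEL#2, so it was at least 82.7-fold higher in Oct4-GFP SNEL#1 (adjusted p = 0.758 by limma). Gm4016 was at least 66.3-fold higher and Pramel31 at least 73.2-fold, with adjusted p of 0.758 and 0.77. Nanog-GFP ESCs lay between Oct4-GFP SNEL#1 and all other lines of both groups for all 10 genes.

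Germline genes that DNA methylation keeps silent in somatic cells followed the same order. In Oct4-GFP SNEL#1 31 of 31 were above the ESC mean (36.0% of all genes), with a median of 1.58, and in Nanog-GFP SNEL#2 10 of 31 (49.0%), with a median of -0.18. Rhox5, an X-linked homeobox gene, read 6.57 in Oct4-GFP SNEL#1 and 4.22 in Nanog-GFP SNEL#2, against 3.86 in KH2, 3.65 in Nanog-GFP and 4.87 in Oct4-GFP ESCs. Tex19.1, a germ cell and placenta gene, was 1 of 2 members for which both high-quality lines lay above all ESC arrays (1.38% of all genes did), at 5.29 in Oct4-GFP SNEL#1 and 5.22 in Nanog-GFP SNEL#2, against 4.39 in KH2, 4.83 in Nanog-GFP and 4.83 in Oct4-GFP ESCs. The list's median between the 2 lines was 1.58 and on slide 1 it was 1.56. For both lines against ESCs it was 0.70, and 1.14, -0.36 and 1.60 within slides 1, 2 and 3. With members not above background in a whole group at their bound, the median was 1.46 in Oct4-GFP SNEL#1 and -0.11 in Nanog-GFP SNEL#2. Of 25 genes of the DNA methylation machinery, 8 were above the ESC mean in Oct4-GFP SNEL#1 and 15 in Nanog-GFP SNEL#2, with medians of -0.23 and 0.08.

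Most of the 10 genes furthest below in Oct4-GFP SNEL#1 had values in Nanog-GFP SNEL#2 near those of the ESC lines. Rbbp9, a serine hydrolase that binds the retinoblastoma protein, read -6.63 and -6.33 in Oct4-GFP SNEL#1 and 0.81 and 0.87 in Nanog-GFP SNEL#2, against 1.18 and 1.32 in KH2, 0.82 and 0.88 in Nanog-GFP and 1.08 and 1.25 in Oct4-GFP ESCs. By this probe Oct4-GFP SNEL#1 was at least 74.6-fold lower than Nanog-GFP SNEL#2 (adjusted p = 0.782 by limma), and the poor line Oct4-GFP OSKM#2 was as low, at -7.35. A second Rbbp9 probe did not show the gap and read -1.54 in Oct4-GFP SNEL#1 and -1.53 in Nanog-GFP SNEL#2, against -1.20 in KH2, -1.59 in Nanog-GFP and -1.17 in Oct4-GFP ESCs. Pnp2, a purine nucleoside phosphorylase, averaged -6.16 in Oct4-GFP SNEL#1 and -0.20 in Nanog-GFP SNEL#2, against 0.80 in KH2, -1.34 in Nanog-GFP and 0.22 in Oct4-GFP ESCs, and Zfp874a, a zinc-finger gene, -5.60 in Oct4-GFP SNEL#1 and -0.27 in Nanog-GFP SNEL#2, against -0.25 in KH2, -0.26 in Nanog-GFP and -0.27 in Oct4-GFP ESCs. Trh, the gene of thyrotropin-releasing hormone, averaged 2.30 in Oct4-GFP SNEL#1 and 7.19 in Nanog-GFP SNEL#2, against 6.66 in KH2, 3.6 in Nanog-GFP and 6.31 in Oct4-GFP ESCs, with Nanog-GFP ESCs between Oct4-GFP SNEL#1 and the rest. Gc, the vitamin D-binding protein, and Afm, afamin, belong to the albumin gene family on chromosome 5, and of the high-quality and ESC lines Oct4-GFP SNEL#1 alone was near background for both. Among the other iPSC lines, BC_2 OSKM (-7.93 for Gc and -7.89 for Afm) and Oct4-GFP OSKM#2 (-8.33 and -8.29) were as low. Gc was at least 40.5-fold and Afm at least 16.2-fold lower in Oct4-GFP SNEL#1 than in Nanog-GFP SNEL#2. Otogl, a gene of the inner ear, averaged -7.44 in Oct4-GFP SNEL#1 and -3.02 in Nanog-GFP SNEL#2, against -8.13 in KH2, -8.33 in Nanog-GFP and -8.12 in Oct4-GFP ESCs, so that Nanog-GFP SNEL#2 was the outlying line. 5730437C12Rik, Gbp4, an interferon-induced GTPase gene, and Insyn2b completed the 10.

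The result for Gc depends on the oligonucleotide. Its 2 probes are shown because they disagree, with their mm9 positions from the array files.
Gc, brighter probe: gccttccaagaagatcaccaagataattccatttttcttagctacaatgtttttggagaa
Gc, second probe: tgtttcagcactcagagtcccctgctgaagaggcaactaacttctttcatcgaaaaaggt
The brighter probe, at chr5:89846592-89846651, minus strand, read -7.36 in Oct4-GFP SNEL#1 and -0.12 in Nanog-GFP SNEL#2. The second, at chr5:89864029-89864558, minus strand, where the array gives the interval its 60 bases are spread over, read -5.76 in Oct4-GFP SNEL#1 and -5.99 in Nanog-GFP SNEL#2. Its ESC means were -5.41, -5.34 and -5.24, far below those of the brighter probe at -0.20, -1.52 and -0.94.

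**Figure D2:**
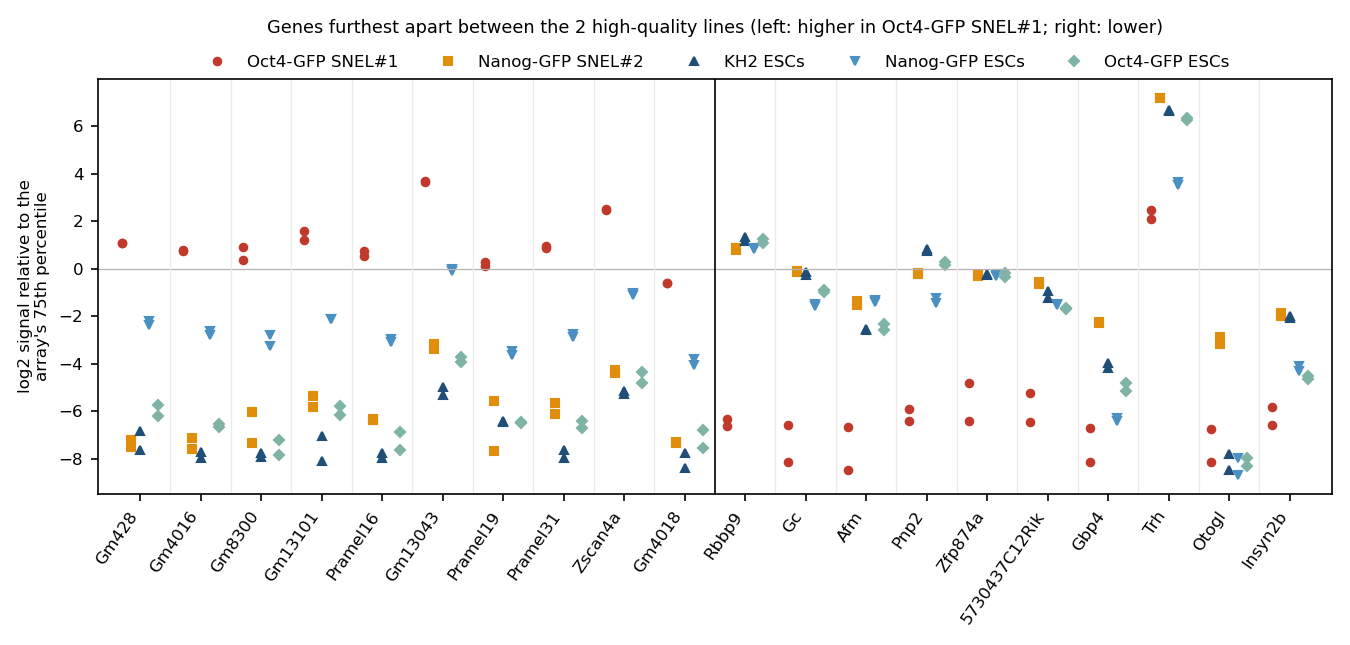
Log2 signal relative to the array's 75th percentile (vertical axis) for the 10 genes furthest above (left of the black line) and the 10 furthest below (right) in Oct4-GFP SNEL#1 relative to Nanog-GFP SNEL#2. Each point is 1 array, 2 per line. At Gm428 the arrays of Oct4-GFP SNEL#1 read 1.08 and 1.1 while those of Nanog-GFP SNEL#2 read -7.19 and -7.49.

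Hypoxia targets also separated the 2 lines. In Oct4-GFP SNEL#1 16 of 18 were above the ESC mean (36.0% of all genes), with a median of 0.72, and in Nanog-GFP SNEL#2 0 of 18 (49.0%), with a median of -0.82. Both lines together had a median of -0.04 against ESCs, and of 0.50, -1.19 and 0.76 within slides 1, 2 and 3. Between the 2 lines 17 of 18 were higher in Oct4-GFP SNEL#1 (41.0% of all genes), with a median of 1.62, and of 1.73 on slide 1. Adm, the secreted peptide adrenomedullin, read 1.86 in Oct4-GFP SNEL#1 and -2.05 in Nanog-GFP SNEL#2, against -0.75 in KH2, 1.28 in Nanog-GFP and 0.10 in Oct4-GFP ESCs. Vegfa, an angiogenic growth factor, read 4.69 in Oct4-GFP SNEL#1 and 2.84 in Nanog-GFP SNEL#2, against 2.93 in KH2, 4.40 in Nanog-GFP and 3.73 in Oct4-GFP ESCs. P4ha2, a collagen prolyl hydroxylase, read 2.76 and 2.72 in Oct4-GFP SNEL#1 and 0.47 and 0.54 in Nanog-GFP SNEL#2, against 0.07 and 0.20 in KH2, 2.12 and 2.18 in Nanog-GFP and 0.61 and 0.67 in Oct4-GFP ESCs. Car9, a membrane carbonic anhydrase, read -1.27 in Oct4-GFP SNEL#1 and -3.22 in Nanog-GFP SNEL#2, against -2.49 in KH2, -1.42 in Nanog-GFP and -2.08 in Oct4-GFP ESCs, and Ankrd37, an ankyrin repeat gene, 2.02 in Oct4-GFP SNEL#1 and 0.50 in Nanog-GFP SNEL#2, against 1.12 in KH2, 2.53 in Nanog-GFP and 2.01 in Oct4-GFP ESCs. The ESC lines themselves were spread over much of this range, and for these genes Nanog-GFP ESCs were the highest of them and KH2 ESCs the lowest. Of the 18, 1 had an unadjusted p under 0.05 between the 2 lines (6.52% of all genes), and the lowest adjusted p of the 5 genes just named was 0.758 by limma.

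Hypoxia-inducible factors bind the core ACGTG. The letters ACGTG, on either strand, were searched in RefSeq promoters of 300 bases (around each gene's start, GRCm38.p6), where 17 of the 18 genes had an entry. At least 1 match was present for 14 of 17 genes, against 21.8% of all 27025 genes, and in 15 of 22 promoters, against 19.6% of all 32851. A match can also be part of the palindrome CACGTG, which 13.6% of the list's promoters and 7.2% of all promoters hold. Promoters of Car9 and Ankrd37 are printed as examples, with the matches in capitals (CACGT is the same site on the other strand).
Car9: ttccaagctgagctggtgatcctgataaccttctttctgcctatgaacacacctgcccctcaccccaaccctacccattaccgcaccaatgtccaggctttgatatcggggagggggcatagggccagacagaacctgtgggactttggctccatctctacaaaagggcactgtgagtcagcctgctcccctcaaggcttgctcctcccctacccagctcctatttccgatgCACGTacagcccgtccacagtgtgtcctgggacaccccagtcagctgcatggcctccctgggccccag
Ankrd37: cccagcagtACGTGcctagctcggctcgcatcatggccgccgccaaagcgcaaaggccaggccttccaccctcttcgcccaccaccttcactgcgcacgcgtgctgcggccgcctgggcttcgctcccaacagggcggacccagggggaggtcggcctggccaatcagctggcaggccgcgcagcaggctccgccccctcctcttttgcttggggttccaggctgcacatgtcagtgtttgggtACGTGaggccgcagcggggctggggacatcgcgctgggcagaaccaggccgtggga
The Car9 promoter lies at chr4:43506776-43507075, plus strand, and that of Ankrd37 at chr8:45999801-46000100, minus strand. They hold 1 and 2 matches. The list was made of hypoxia targets, so a high share of matches goes with that choice and is no result about these lines. A match describes the sequence and no binding was measured.

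Fibroblast genes lay low in Nanog-GFP SNEL#2 and not in Oct4-GFP SNEL#1. The list held markers of the cells from which iPSC lines are commonly made. In Nanog-GFP SNEL#2 26 of 29 were below the ESC mean (51.0% of all genes), with a median of -1.49, and in Oct4-GFP SNEL#1 9 of 29 (64.0%), with a median of 0.10. In Nanog-GFP SNEL#2 7 of the 29 were not above background, and with these at their bound its median was -1.25. Postn, the matrix protein periostin, read -4.05 and -3.56 in Oct4-GFP SNEL#1 and -7.03 and -7.01 in Nanog-GFP SNEL#2, against -3.23 and -2.93 in KH2, -3.94 and -3.32 in Nanog-GFP and -4.47 and -3.93 in Oct4-GFP ESCs. Col1a1, the main fibrillar collagen chain, read 1.40 in Oct4-GFP SNEL#1 and -1.5 in Nanog-GFP SNEL#2, against 1.5 in KH2, 1.46 in Nanog-GFP and 0.55 in Oct4-GFP ESCs, and Ccdc80, a secreted matrix protein, -2.84 in Oct4-GFP SNEL#1 and -4.94 in Nanog-GFP SNEL#2, against -1.75 in KH2, -3.03 in Nanog-GFP and -2.85 in Oct4-GFP ESCs. Acta2, smooth muscle actin, read -1.22 in Oct4-GFP SNEL#1 and -2.29 in Nanog-GFP SNEL#2, against 1.37 in KH2, -1.21 in Nanog-GFP and -0.94 in Oct4-GFP ESCs, where KH2 ESCs stood above the other lines. The median for both lines together was -0.70, and within slides 1, 2 and 3 it was -0.89, -1.19 and 0.29. The list's median level was -1.75 in Oct4-GFP SNEL#1 and -3.00 in Nanog-GFP SNEL#2, against -1.75, -2.19 and -2.28 in KH2, Nanog-GFP and Oct4-GFP ESCs.

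**Figure D3:**
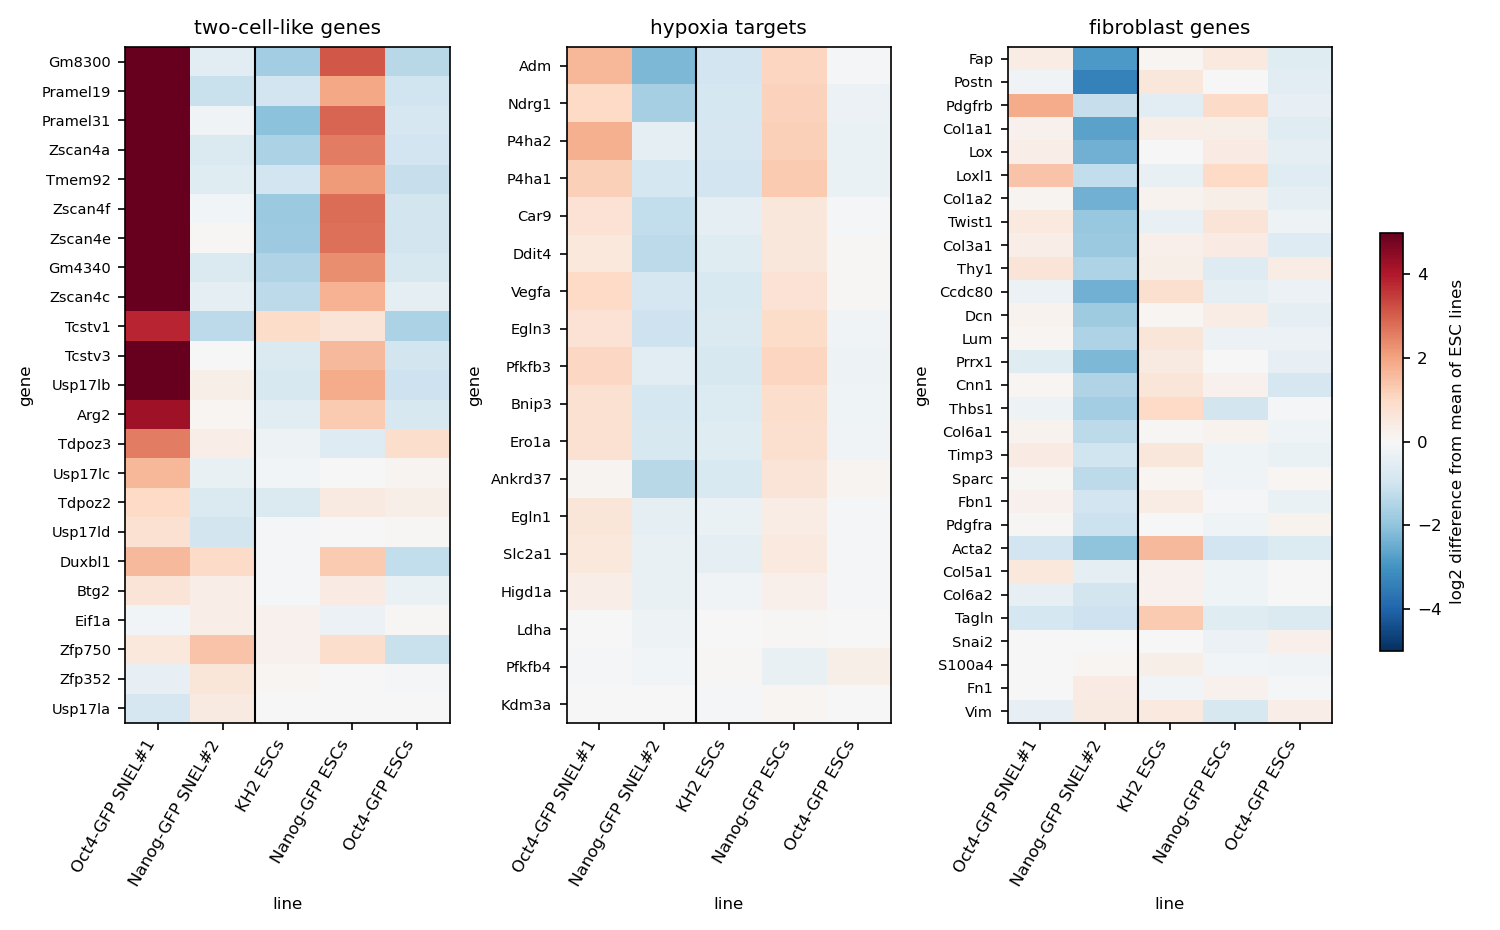
Mean log2 level of each gene (rows) in each line (columns) minus the mean of the 3 ESC lines, for 2-cell-like genes, hypoxia targets and fibroblast genes. Colours stop at 5 log2 units in either direction, genes are ordered by the difference between the 2 high-quality lines, and the black line parts high-quality from ESC lines. Oct4-GFP SNEL#1 is above the ESC mean for 20 of 23 2-cell-like genes, and Nanog-GFP SNEL#2 is low for fibroblast genes (median -1.49) and hypoxia targets (median -0.82).

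Lists of other lineages had medians between -0.61 and 0.55 in the single lines. Primitive endoderm genes had a median of 0.55 in Oct4-GFP SNEL#1 and -0.61 in Nanog-GFP SNEL#2 (18 measured), mesendoderm genes 0.03 and -0.51 (18 measured), trophoblast genes 0.00 and -0.28 (12 measured) and neuroectoderm genes -0.04 and 0.01 (19 measured). Blood cell genes had medians of 0.47 and 0.00 (14 measured). With genes not above background at their bound, the medians of Nanog-GFP SNEL#2 were -0.47 for primitive endoderm, -0.30 for mesendoderm and 0.02 for trophoblast genes. Hand1, a trophoblast and mesoderm factor, read -1.40 and -3.86 in Oct4-GFP SNEL#1 and -7.21 and -7.53 in Nanog-GFP SNEL#2, against -7.68 and -7.12 in KH2, -5.22 and -5.17 in Nanog-GFP and -8.06 and -7.26 in Oct4-GFP ESCs. It was detected in Oct4-GFP SNEL#1 and in Nanog-GFP ESCs, and near background elsewhere. Id2, an inhibitor of helix-loop-helix factors counted among the ERK targets, averaged 0.41 ± 1.17 in the high-quality lines (SD, n = 2) and -1.32 ± 0.61 in the ESC lines (SD, n = 3), without overlap between arrays. Dkk1, a secreted Wnt inhibitor, read -5.27 in Oct4-GFP SNEL#1 and -2.71 in Nanog-GFP SNEL#2, against -4.0 in KH2, -7.71 in Nanog-GFP and -4.29 in Oct4-GFP ESCs. For both lines together, ribosomal protein genes had a median of 0.04 over 83 genes and glycolysis genes -0.02 over 22. Sterol synthesis genes had a median of 0.06 over 25 and oxidative phosphorylation genes 0.00 over 81. In the same comparison interferon response genes had a median of 0.02 over 23, Wnt targets -0.13 over 18 and histone variants -0.03 over 12. Stress genes of the amino acid and endoplasmic reticulum pathways had -0.13 over 23. In Oct4-GFP SNEL#1 29 of 83 ribosomal protein genes (median -0.02) and 19 of 81 oxidative phosphorylation genes (median -0.13) were above the ESC mean, beside 36.0% of all genes. In Nanog-GFP SNEL#2 these counts were 67 (median 0.12) and 66 (median 0.12), beside 49.0%.

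**Figure D4:**
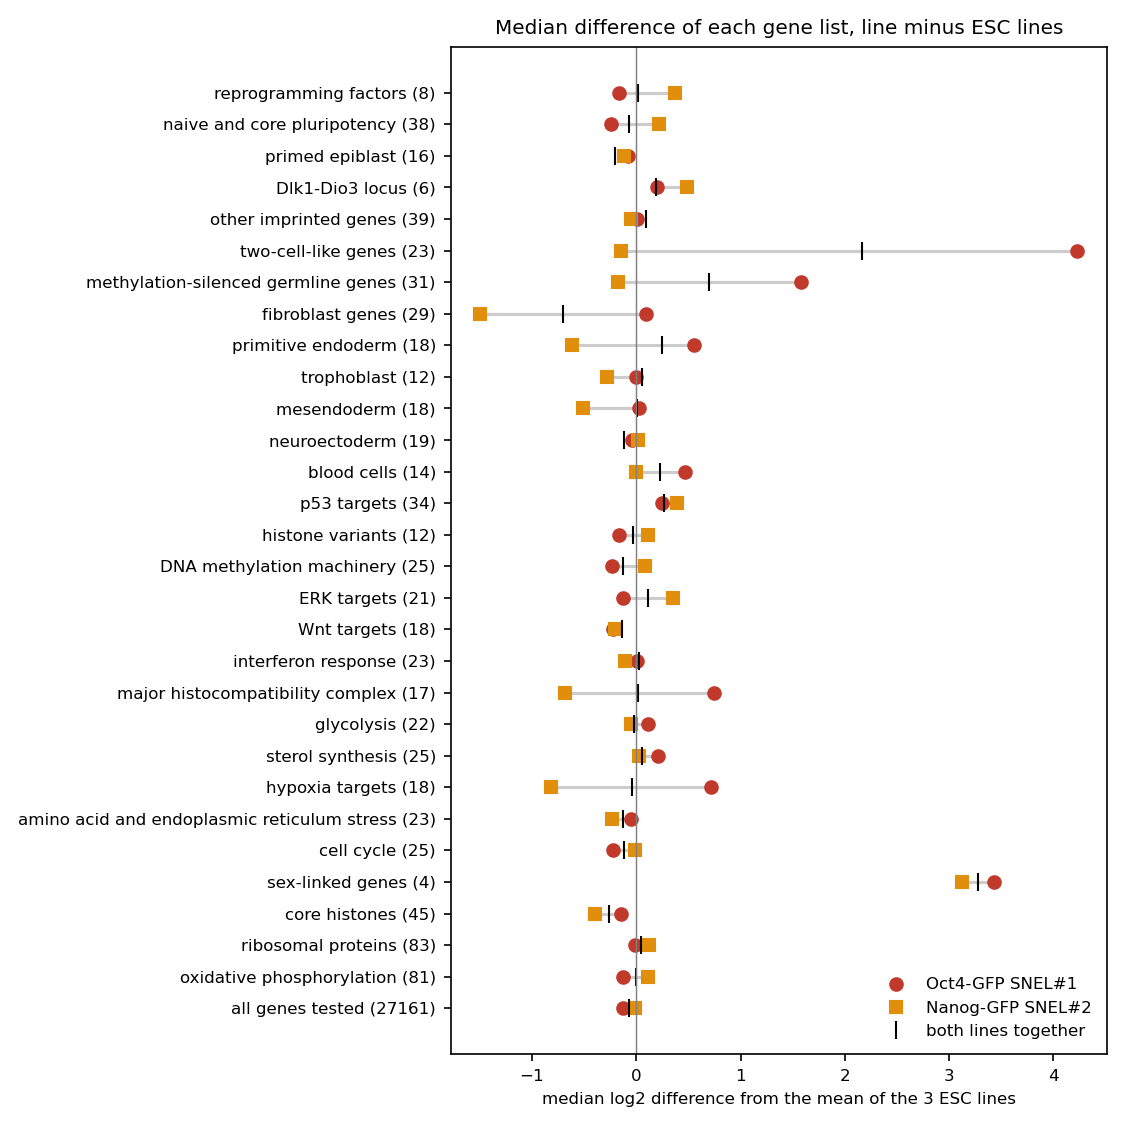
Median log2 difference from the mean of the 3 ESC lines (horizontal axis) for each of 29 gene lists, with the number of measured genes in brackets, and for all genes. Circles are Oct4-GFP SNEL#1, squares Nanog-GFP SNEL#2, and ticks the comparison of both lines together. The 2 lines lie on opposite sides of 0 for hypoxia targets (0.72 and -0.82) and on the same side for p53 targets (0.25 and 0.39).

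Nanog-GFP SNEL#2 against the ESC lines gave 1 call among 27161 genes (0.00368%), and 2193 genes (8.07%) had an unadjusted p under 0.05. The called transcript, ENSMUST00000059184 on chromosome 13, rose by limma at a log2 difference of 4.19 ± 0.28 (SE, adjusted p = 0.0437). This call rests on 1 array. The probe read -5.27 and -5.52 in Oct4-GFP SNEL#1 and -4.02 and 2.96 in Nanog-GFP SNEL#2, against -4.52 and -4.82 in KH2, -5.09 and -4.52 in Nanog-GFP and -5.12 and -4.28 in Oct4-GFP ESCs, so array 2 of Nanog-GFP SNEL#2 was far above and array 1 close to the ESC lines. Its sequence is given because the only call of the comparison depends on it.
ENSMUST00000059184: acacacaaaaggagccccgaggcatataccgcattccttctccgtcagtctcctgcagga
The probe lies at chr13:120197505-120197564, plus strand, in mm9. Gk, the X-linked glycerol kinase, had the next smallest adjusted p, 0.0678, and was chosen after its values were seen. It read -1.71 and -1.40 in Oct4-GFP SNEL#1 and -4.50 and -4.20 in Nanog-GFP SNEL#2, against -1.33 and -1.28 in KH2, -1.63 and -1.64 in Nanog-GFP and -1.44 and -1.5 in Oct4-GFP ESCs, with both arrays of Nanog-GFP SNEL#2 low. Oct4-GFP SNEL#1 against the ESC lines gave 0 calls (0.0%), with a lowest adjusted p of 0.249 and 1303 genes (4.8%) at an unadjusted p under 0.05. That lowest value belonged to Noct, the circadian gene nocturnin, named here after its values were seen. It read -3.73 and 2.59 in Oct4-GFP SNEL#1 and 2.24 and 2.34 in Nanog-GFP SNEL#2, against 2.73 and 2.70 in KH2, 2.24 and 2.19 in Nanog-GFP and 2.68 and 2.60 in Oct4-GFP ESCs, so that it too rests on 1 array.

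Over all genes, the mean distance of either high-quality line to the ESC lines was larger than that of any ESC line to the other ESC lines. Oct4-GFP SNEL#1 lay 0.895, 0.577 and 0.874 log2 units (root mean square) from KH2, Nanog-GFP and Oct4-GFP ESCs, so its nearest line was Nanog-GFP ESCs. Nanog-GFP SNEL#2 lay 0.672, 0.79 and 0.746 from the same lines, and KH2 ESCs were nearest. Pairs of ESC lines lay 0.506 to 0.719 apart. The mean distance to the ESC lines was 0.759 ± 0.033 in the high-quality lines (SD, n = 2), against 0.798 ± 0.049 in the 5 poor and good lines (SD, n = 5), a difference of -0.039 with a two-sided exact permutation p of 0.381 over 21 splits, and 0.0952 is the smallest p that this design allows.

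**Figure D5:**
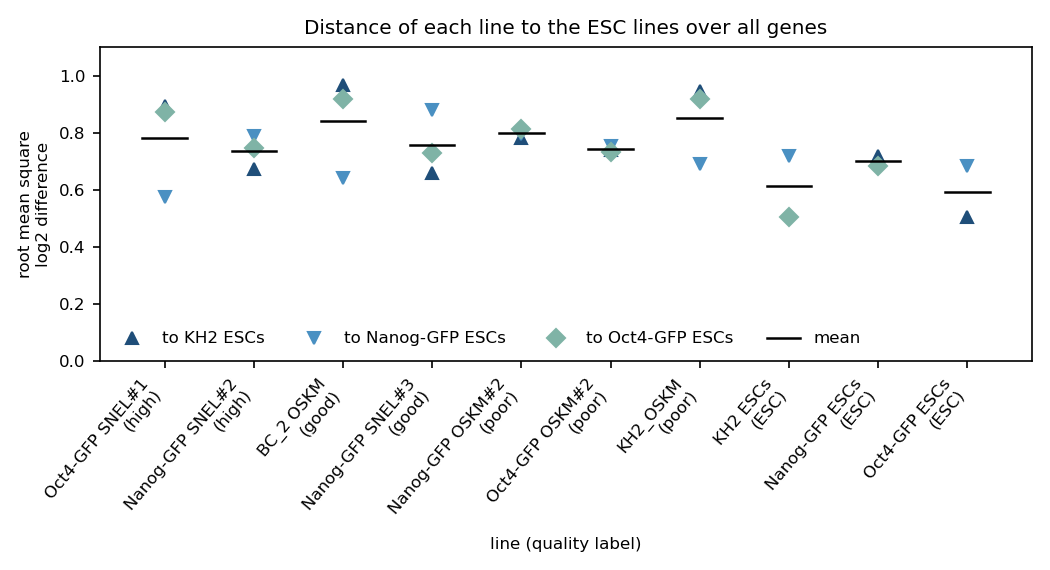
Root mean square log2 difference over all genes (vertical axis) between each line and each ESC line. Symbols name the ESC line, and the bar is the mean. Oct4-GFP SNEL#1 is nearest to Nanog-GFP ESCs (0.577) and Nanog-GFP SNEL#2 to KH2 ESCs (0.672).

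Against the lines of the other grades, limma called 0 genes for high minus poor (0.0%, 1142 or 4.2% at an unadjusted p under 0.05, lowest adjusted p 0.737) and 0 for high minus good (0.0%, 727 or 2.68%, lowest adjusted p 0.282). The fibroblast list had a median of 0.55 over the poor lines, where 22 of 29 genes were higher in the high-quality lines (46.6% of all genes) and 7 lower (53.4%). Over the good lines it had a median of 0.77, with 25 higher (49.2%) and 4 lower (50.8%). The 2-cell-like list had a median of -0.34 against the poor lines, with 7 of 23 genes higher (46.6% of all genes). Against the good lines its median was 0.98, with 20 higher (49.2%). The germline list had a median of -0.49 against the poor lines, with 10 of 31 genes higher. Against the good lines its median was 0.31, with 23 higher. These comparisons and the one with ESCs share the high-quality lines. Ccdc80 lay at -2.84 in Oct4-GFP SNEL#1 and -4.94 in Nanog-GFP SNEL#2, against -8.03, -8.35 and -7.19 in the poor lines. Thbs1, the matrix protein thrombospondin 1, lay at -1.79 and -3.27 in the same 2 lines, against -7.91, -6.65 and -5.82. Chromosome medians showed no whole-chromosome shift in the high-quality lines as large as that of chromosome 8 in Oct4-GFP ESCs. Chromosome 8 stood at -0.08 in Oct4-GFP SNEL#1 and -0.05 in Nanog-GFP SNEL#2, against -0.04, -0.08 and 0.17 in KH2, Nanog-GFP and Oct4-GFP ESCs. Each value is relative to the mean of the ESC lines (for an ESC line, of the other 2) and to the line's median over all genes. Over the autosomes the widest median of a high-quality line was the chromosome 8 value of -0.08 in Oct4-GFP SNEL#1. The mean it was set against includes Oct4-GFP ESCs, with their chromosome 8 value of 0.17.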

How the data were processed

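Total RNA of 10 mouse lines was measured on 20 Agilent 1-colour arrays, 2 per line. Per the file headers, spot intensities were extracted with Feature Extraction 10.1.1.1, which subtracts background to give the processed intensity used here. The authors' deposited value table, used as an alternative, holds log2 values. Its exact scaling and centring are not given in the sources used here, though the submitters' processing notes name limma. Its column medians lie between 6.44 and 6.45, and its values rank the probes of an array as the scanner's mean signals do (rank correlation 0.998 or more).

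Control spots and spots called outliers were left out, leaving 55681 probes. Each array's log2 processed signal was set against its 75th percentile, with no pseudocount, spots of a probe were averaged, and the 2 arrays of a line were averaged. The filter left 38756 probes that Feature Extraction called well above background on 4 or more of the 20 arrays. A gene was read from its brightest remaining probe (27161 genes). Symbols came from the array files and were updated through RefSeq where they matched (26413 probes matched, 3093 changed). All 10 lines were fitted by group, and for single lines with each high-quality line as a group of its own, with limma 3.58.1 in R 4.3.3 and Benjamini-Hochberg adjustment at 0.05. An error with n counts lines. Promoter sequences are from RefSeq, GRCm38.p6, and probe positions are in mm9. Tables used pandas 2.3.3 and scipy 1.17.1 under Python 3.11.15.

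Genes were named by rule: the 15 largest differences each way among genes whose high-quality and ESC arrays do not overlap, the 10 largest each way between the high-quality lines, up to 4 members of each list with the smallest p, the 8 factors, the Dlk1-Dio3 list, H2ax, Phlda3 and sex-linked genes. Other genes named were chosen after their values were seen. The members and lists were chosen with earlier results of these data known. Alternatives were quantile normalization, normexp background correction (offset 50), the value table, other filters (none, or 10 arrays), the mean of all probes, only high-quality and ESC lines, reporter as a term, slide as a block, array number as a replicate block, and each line left out. Array 2 alone for Oct4-GFP SNEL#1, within-slide differences between the 2 high-quality lines, list medians with members not above background at their bound and the alternatives for counts of non-overlapping genes were chosen after seeing the data. On simulated data for high-quality against ESC lines, with 27161 genes, limma recovered 7.3%, 60%, 80.7% and 88.7% of 2-, 4-, 8- and 16-fold changes. Both high-quality lines were shifted equally there, with independent normal noise at limma's estimate of each gene's spread.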

Additional observations from a re-analysis of the deposited data

Results flagged for a closer look

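In 2 of 64 sets of arrays examined, 1 array lay far from the rest of its group. Chance flags about 1 in 20 sets of independent values. These arrays come 2 to a line and the genes examined were chosen for large differences, so that rate need not hold here. For Olig2, array 2 of Nanog-GFP SNEL#2 read -6.07 among the 4 high-quality arrays, and its nearest neighbour was array 1 of the same line at -2.42, a gap of 0.952 of the range. For Ghrl, array 2 of KH2 ESCs read -5.18 among the 6 ESC arrays, and the nearest was array 2 of Nanog-GFP ESCs at -4.37, a gap of 0.754 of the range.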

How the results depend on the processing

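For high-quality minus ESC lines, limma called 2 genes (Ubd and Trim12a) when only those lines were fitted, 8 over 20 arrays without slide, and 0 to 1 when each line was left out, the 1 being ENSMUST00000059184 without Oct4-GFP SNEL#1. With the array number as a replicate block, 0 genes were called, and with slide as a block 0. Deviations of array 1 from the line mean had correlations of -0.016 to 0.513 over 10 pairs of lines, with a median of 0.266. Arrays of the same number thus tended to deviate together. High minus poor gave 2 calls, Thbs1 and Ccdc80, both over 20 arrays without slide and with the replicate block, 0 over the same arrays with slide as a block, and 0 to 1 when each line was left out. High minus good gave 0 to 2 in the same way, the 2 being Gk and ENSMUST00000059184 without Oct4-GFP SNEL#1. Nanog-GFP SNEL#2 minus ESC gave 3 calls in the authors' value table, 0 with no filter, 2 with the filter of 10 arrays, and 0 to 0 without each ESC line. Oct4-GFP SNEL#1 minus Nanog-GFP SNEL#2 gave 1 call, ENSMUST00000059184, after quantile normalization, in the authors' value table, after normexp correction and with the filter of 10 arrays. Genes with all high-quality arrays above all ESC arrays numbered 376, and 578 to 3836 when each line was left out. Those below numbered 718, and 937 to 3911. Of the 376 and 718 together, 34.4% were higher, 38.8% after quantile normalization, 39.4% in the authors' table and 52.0% without Oct4-GFP SNEL#1. Medians of gene lists moved by more than the SD between the list medians of the 2 high-quality lines in 116 of their recomputed values. They did not in 696. That limit is widest for lists where the 2 lines disagree, so the 696 do not measure stability. The fibroblast median of -0.70 was -0.16 after normexp correction, and the 2-cell-like median of 2.16 was 0.87 in the authors' table and 0.81 after normexp correction. No gene was called between high-quality and ESC lines or between the 2 high-quality lines, so no called value could change sign there. Some list medians did change sign. Without Oct4-GFP SNEL#1 the 2-cell-like median was -0.15 and that of the germline genes -0.18. Without Nanog-GFP SNEL#2 the fibroblast median was 0.10. The cause of each change was not tested. With 2 arrays a line and 2 or 3 lines a group, changes of 2-fold were rarely recovered in simulation, and low signals carry most of the largest differences.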
